A study of Homo sapiens with 6 samples.

Results

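The 10 genes described here encode enzymes that burn fatty acids in mitochondria and the flavoproteins that pass the resulting electrons to ubiquinone. They are CPT1A and CPT2 of the carnitine shuttle, the acyl-CoA dehydrogenases ACADVL, ACADM and ACADS, the trifunctional protein subunits HADHA and HADHB, and the electron transfer chain of ETFA, ETFB and ETFDH. The members were taken by gene symbol from a list of pathway genes, and all 10 were present among the 19845 gene symbols of the count table. The study sequenced RNA of Molm13-Cas9+ cultures, 6 in all. Molm13 is an established line from human acute myeloid leukemia with a rearranged MLL gene, and every culture expressed Cas9. A lentiviral vector, ipUSEPR, delivered a guide RNA together with puromycin resistance, and cells were selected in puromycin. In 3 cultures the guide was a control (sgCtrl), and in 3 cultures it targeted COX4I1 (sgCOX4I1), a subunit of Complex IV of the respiratory chain. Each culture carried a different guide, numbered #1 to #3 within its group, so the spread within a group includes differences between guides. The cultures were selected populations rather than single clones, and the time from transduction to RNA is not given in the sources used here.

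Long-chain fatty acids enter the mitochondrial matrix as acylcarnitines, made by CPT1 at the outer membrane and turned back into acyl-CoA by CPT2 at the inner membrane. Each round of beta-oxidation begins with an acyl-CoA dehydrogenase, which takes electrons onto FAD and hands them to the soluble electron transfer flavoprotein (ETF), and ends with the release of acetyl-CoA. ETF gives its electrons to ETF-ubiquinone oxidoreductase in the inner membrane, and from ubiquinone they flow through Complex III and cytochrome c to Complex IV, the complex that contains COX4I1. The comparison therefore concerns transcripts of a pathway whose electrons leave the chain at the targeted complex.

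The total of the deposited counts lay between 17241014 and 30861943 per library, and a gene with 0 counts in a library was limited to 0.0972 to 0.174 CPM, depending on the library and from counting error only. CPM here are reads scaled to a common library size after TMM adjustment by edgeR, and values per library are given in the order #1, #2, #3. COX4I1 itself (GRCh38, chr16:85798633-85807068, plus strand) measured 513, 502 and 463 CPM in sgCtrl and 132, 378 and 133 CPM in sgCOX4I1. The culture with sgCOX4I1 #2 thus held 76.7% of the sgCtrl mean, against 26.7% and 27.0% in the other 2, and the log2 fold change of the group was -1.21 (SE 0.29, edgeR adjusted p = 0.0512). Without sgCOX4I1 #2 the value was -1.89 (adjusted p = 3.37e-06), and over all alternatives the edgeR, DESeq2 or voom adjusted p lay between 3.37e-06 and 0.272. COX4I1 was measured here as mRNA, which does not give the protein left in each culture. By immunoblot, the paper reported less COX4I1 protein in Molm13-Cas9+ cells with independent sgCOX4I1 sequences. All 10 markers of myeloid leukemia cells reached at least 1 CPM in every library, and among 12 markers of other cell types CD3D, HBA1, HBB and EPCAM had 0 counts throughout. The summed myeloid markers were at 2053 to 2188 CPM in sgCtrl and 1818 to 2006 CPM in sgCOX4I1. MPO, the granule myeloperoxidase, fell by 1.06 on the log2 scale (edgeR adjusted p = 1.6e-05). The markers of other cell types summed to 225 to 255 CPM in sgCtrl and 251 to 287 CPM in sgCOX4I1, most of it PECAM1 (169, 168 and 197 CPM in sgCtrl and 184, 220.0 and 198 CPM in sgCOX4I1) and NKG7, while 9 of the 12 stayed under 1 CPM in every library. The part of these marker differences in the results below was not tested.

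None of the 10 genes passed an adjusted p of 0.05 in the quasi-likelihood test of edgeR, adjusted by Benjamini-Hochberg over 11861 tested genes, and the same count of 0 came from DESeq2 and from limma-voom. Of all tested genes, 247 (2.08%) passed it, 126 higher and 121 lower in sgCOX4I1, and 24 (0.202%) also differed by at least 2-fold. At an unadjusted p under 0.05 the members gave 1 of 10, which was ETFA, where the table as a whole gave 17.3%. That count was 3 without sgCtrl #1 and 0 in DESeq2 and without sgCtrl #2, sgCtrl #3, sgCOX4I1 #2 or sgCOX4I1 #3. All 10 passed the filter on low counts, with 298 to 14573 counts per library, so none was lost to low expression. The log2 fold changes ran from -0.15 (ETFB) to 0.16 (ETFA and ETFDH), with 7 above 0 and 3 below, beside 49.4% above 0 over all tested genes. The members' median was 0.12, beside a median of -0.0023 and quartiles of -0.12 and 0.12 over all tested genes. Without sgCtrl #3 the members' median was 0.050 and without sgCtrl #2 it was 0.074, and leaving out any other library gave 0.081 to 0.13.

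These differences were measured with a standard error of 0.072 to 0.12 on the log2 scale, close to the median of 0.10 over all genes. The 95% intervals of all 10 lay inside a 2-fold change in either direction. The lowest bound was -0.41 for ETFB, a change of -24.7%, and the highest was 0.40 for CPT2, a change of 31.7%. A missed threshold does not show that the groups were equal, and the intervals give the size of difference that these libraries leave possible. Cultures were measured in bulk, so fewer cells of a type and less RNA per cell cannot be told apart. In 3 genes (HADHB, ETFA and ETFDH) every sgCOX4I1 library lay above every sgCtrl library, an arrangement found in 11.2% of all tested genes. No member had its groups apart in the opposite direction, which 10.4% of all tested genes did, and in the other 7 the groups overlapped. With 3 libraries against 3, the smallest two-sided p that an exact permutation test allows is 0.1.

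**Figure D1:**
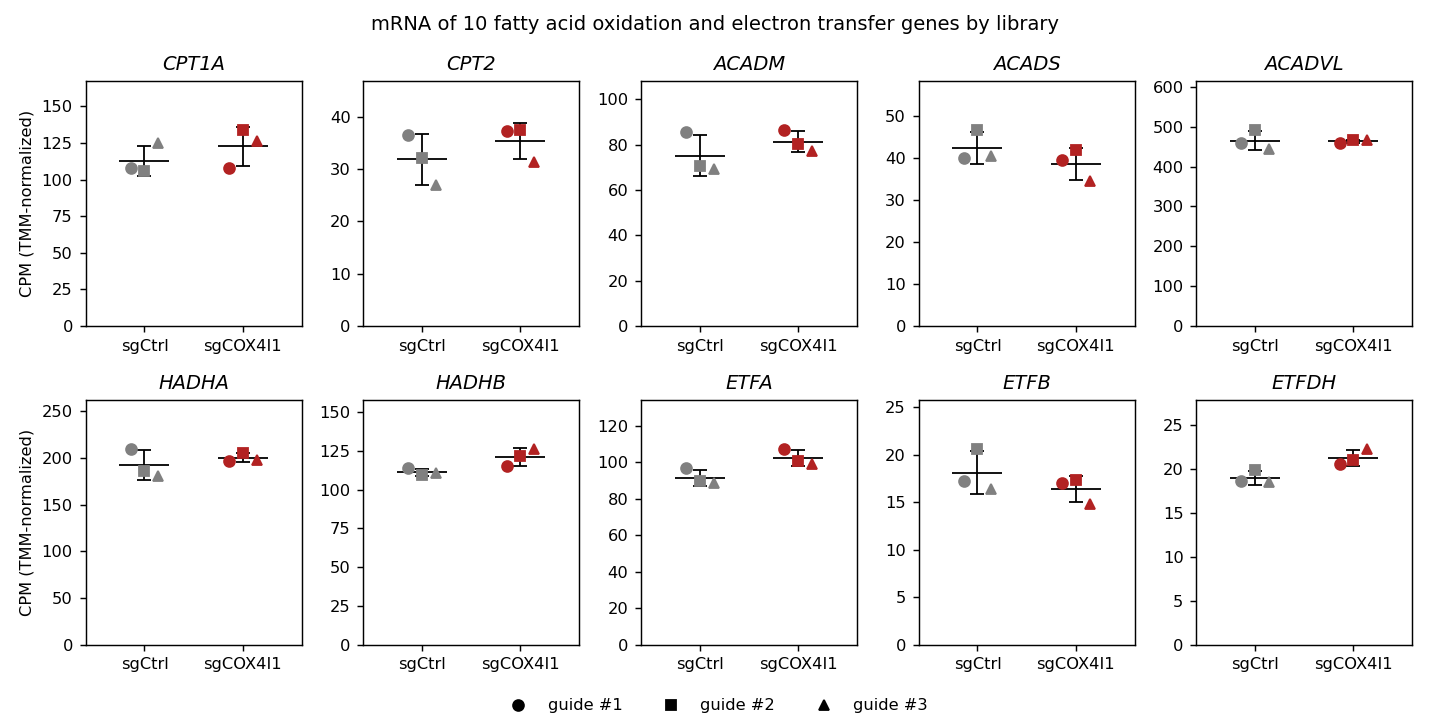
TMM-normalized CPM (linear axis from 0, a separate scale for each gene) of the 10 genes in the 3 sgCtrl libraries (gray) and the 3 sgCOX4I1 libraries (red), with the symbol giving the guide number, the wide line the mean and the bar the SD. The groups overlap in 7 panels and stand apart in HADHB, ETFA and ETFDH, where the sgCOX4I1 means of 121, 103 and 21.2 CPM lie above the sgCtrl means of 111, 91.5 and 19.0 CPM.

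**Figure D2:**
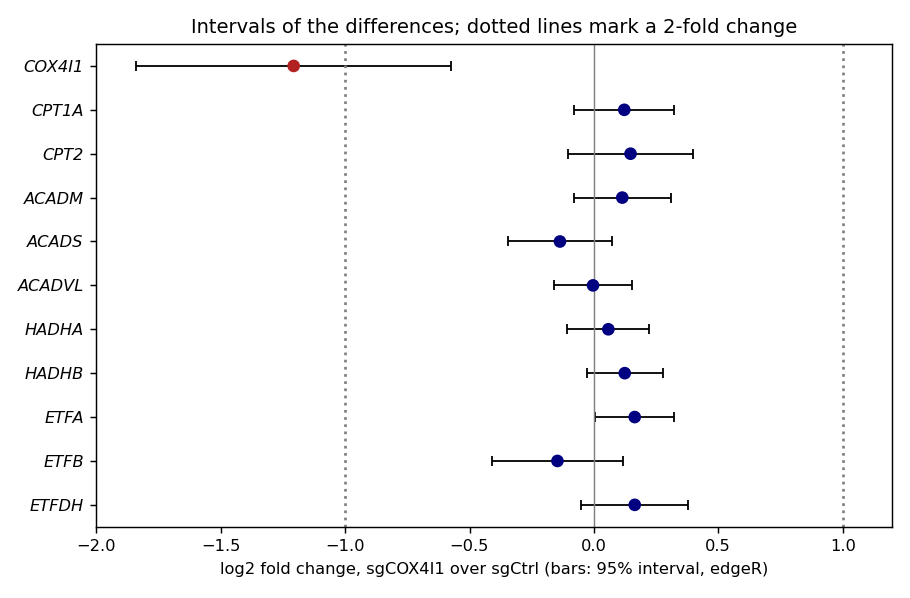
Log2 fold change of COX4I1 (red) and of the 10 genes (blue), sgCOX4I1 over sgCtrl, with 95% intervals from the edgeR fit and dotted lines at a 2-fold change. All 10 intervals stay inside the dotted lines, between -0.41 and 0.40, and only that of ETFA, from 0.0047 to 0.32, does not include 0.

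Both enzymes of the carnitine shuttle had means slightly above sgCtrl with overlapping groups. CPT1A, the isoform of carnitine palmitoyltransferase I found in most tissues outside muscle and the step that malonyl-CoA inhibits, lies on the minus strand at chr11:68754620-68844410. It measured 108, 106 and 125 CPM in sgCtrl and 108, 134 and 126 CPM in sgCOX4I1. The sgCOX4I1 #1 culture, with 26.7% of control COX4I1 mRNA, sat at the level of sgCtrl #1, and the highest value came from sgCOX4I1 #2, which kept most COX4I1 mRNA. The difference was 0.12 on the log2 scale (95% interval -0.078 to 0.32, edgeR adjusted p = 0.541). Without sgCOX4I1 #2 it was 0.058 and without sgCtrl #2 0.077, whereas without sgCOX4I1 #1 it was 0.21 and without sgCtrl #3 0.20. Across the alternatives its adjusted p ran from 0.298 to 0.855. The muscle isoform CPT1B was counted 21 to 52 times per library, although a readthrough transcript of the same strand shares 66.4% of its exonic bases, and the brain isoform CPT1C 5 times in all 6 libraries together. Per kilobase of canonical transcript, the sgCtrl mean was 21.5 CPM for CPT1A and 0.577 CPM for CPT1B.

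CPT2, which lies at chr1:53196792-53214197 on the plus strand, gave 36.6, 32.1 and 26.9 CPM in sgCtrl and 37.2, 37.4 and 31.3 CPM in sgCOX4I1. It had the widest spread of the 10 among the control cultures, with a coefficient of variation of 15.2%, and sgCOX4I1 #3 fell inside the control range. The log2 fold change was 0.15 (95% interval -0.10 to 0.40, edgeR adjusted p = 0.559). Without sgCtrl #3, its lowest library, the value was 0.038, and it was 0.26 without sgCtrl #1 and 0.23 without sgCOX4I1 #3. Of 6 tested genes of the shuttle outside the members, 3 lay above 0 and 3 below, none passed the adjusted p, and their median was 0.045. SLC25A20, the carnitine-acylcarnitine translocase between CPT1 and CPT2, measured 11.9, 14.6 and 10.96 CPM in sgCtrl and 15.5, 16.9 and 11.8 CPM in sgCOX4I1 (log2 fold change 0.23, edgeR adjusted p = 0.477). CRAT, which makes acetylcarnitine, had a log2 fold change of -0.20 (adjusted p = 0.498 in the same fit), with sgCOX4I1 #1 the lowest library at 10.9 CPM.

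The 3 acyl-CoA dehydrogenases, which differ in the chain length they accept, had differences near 0 or of opposite sign. ACADVL, the very long-chain enzyme bound to the inner membrane (chr17:7217125-7225266, plus strand), measured 459, 492 and 444 CPM in sgCtrl and 459.6, 466 and 466 CPM in sgCOX4I1. The 3 sgCOX4I1 libraries lay within the range of the controls and differed from each other by less than any other member did, with a coefficient of variation of 0.787%. The log2 fold change of ACADVL was -0.0036 (95% interval -0.16 to 0.15, edgeR adjusted p = 0.987), so the interval ran from -10.6% to 11.3%. Its sign turned under 4 of 12 alternatives. Of the exonic bases of ACADVL 1.02% are shared with DLG4 on the opposite strand.

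ACADM, the medium-chain enzyme (chr1:75724431-75787575, plus strand), gave 85.6, 70.5 and 69.4 CPM in sgCtrl and 86.5, 80.5 and 77.1 CPM in sgCOX4I1. The sgCtrl #1 library stood with the sgCOX4I1 libraries rather than with the other controls, and the log2 fold change with all libraries was 0.11 (95% interval -0.082 to 0.31, edgeR adjusted p = 0.563, and 0.159 to 0.856 over the alternatives). It was 0.22 without sgCtrl #1, 0.061 without sgCtrl #3, and 0.070 without sgCtrl #2 or without sgCOX4I1 #1. ACADS, the short-chain enzyme (chr12:120725774-120740008, plus strand), measured 40.0, 46.7 and 40.5 CPM in sgCtrl and 39.5, 42.0 and 34.5 CPM in sgCOX4I1. The highest library was sgCtrl #2 and the lowest sgCOX4I1 #3, with the other 4 close together. Its log2 fold change was -0.14 (95% interval -0.35 to 0.074, edgeR adjusted p = 0.512), and -0.062 without sgCtrl #2 or -0.058 without sgCOX4I1 #3. The long-chain enzyme ACADL had 0 counts in all 6 libraries, which allows up to 0.174 CPM in the shallowest one. ACAD9, a relative of ACADVL that also serves in Complex I assembly, had a log2 fold change of 0.073 (edgeR adjusted p = 0.649, chosen after its values were seen).

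HADHA and HADHB form the mitochondrial trifunctional protein, in which the alpha subunit carries the hydratase and 3-hydroxyacyl-CoA dehydrogenase for long chains and the beta subunit the thiolase. Their genes are neighbours on chromosome 2, HADHA on the minus strand (chr2:26190635-26244672) and HADHB on the plus strand (chr2:26243170-26290465), and these annotated spans overlap. By the start bases of the RefSeq promoter table (GRCh38.p14) the genes point away from each other, with 306 bases between the starts. The stretch below is shown because it lies between these starts, although at least 1 annotated HADHB transcript begins before it and spans it. It is the part of the interval that lies in no annotated exon, read on the minus strand at chr2:26244673-26244747, towards HADHA, and it holds none of the motifs searched, so no letters are in capitals.
HADHA and HADHB: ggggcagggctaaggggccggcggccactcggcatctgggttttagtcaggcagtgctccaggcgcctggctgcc

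HADHA measured 210.0, 186 and 180.2 CPM in sgCtrl and 197, 205 and 198 CPM in sgCOX4I1. The 3 sgCOX4I1 libraries were within a narrow band inside the range of the controls, which sgCtrl #1 widened upwards. The log2 fold change was 0.058 (95% interval -0.11 to 0.22, edgeR adjusted p = 0.750). It was 0.13 without sgCtrl #1, 0.036 without sgCtrl #2 and 0.015 without sgCtrl #3. HADHB measured 114, 109 and 111 CPM in sgCtrl and 115, 122 and 127 CPM in sgCOX4I1, with all sgCOX4I1 libraries above all controls and sgCOX4I1 #1 only just so. Its log2 fold change of 0.12 (95% interval -0.030 to 0.28) did not pass edgeR's adjusted p (0.398, and 0.341 to 0.687 over the alternatives), and the two-sided exact permutation p was 0.1. The annotation holds 2 numbered pseudogenes of HADHA and 1 of HADHB, and how reads shared with them were counted is not given in the sources used here.

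Since both subunits sit in 1 complex, their ratio was taken in each library, a measure chosen after the values were seen. HADHA over HADHB was 1.84, 1.70 and 1.63 in sgCtrl and 1.71, 1.69 and 1.57 in sgCOX4I1 (ratio of CPM, 1.73 ± 0.109 against 1.65 ± 0.0765, SD, n = 3). The ranges overlapped, and the two-sided exact permutation p was 0.5. Over the 6 libraries the Pearson r between log2 CPM of HADHA and HADHB was 0.54, which placed HADHB at rank 2099 of 11860 genes by likeness to HADHA. The tested genes outside the members with the closest pattern to HADHA were PTPN9 (r = 0.985), NPTN (0.983) and LZIC (0.982). With 6 points that share library and scaling, these values are a description only.

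The other mitochondrial enzymes of the spiral gave a similar picture, with 13 of 15 listed genes tested, 9 above 0 and 4 below, none past the adjusted p, and a median of 0.052. ECHS1, the short-chain enoyl-CoA hydratase, measured 161, 146 and 150.0 CPM in sgCtrl and 161, 176 and 170.3 CPM in sgCOX4I1, where sgCtrl #1 overlapped sgCOX4I1 #1 (log2 fold change 0.15, edgeR adjusted p = 0.318). ACAT1, the mitochondrial acetoacetyl-CoA thiolase, measured 97.3, 84.5 and 76.3 CPM in sgCtrl and 102, 92.7 and 94.3 CPM in sgCOX4I1 (0.16, adjusted p = 0.384 in the same fit).

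The electron transfer flavoprotein is a heterodimer of ETFA, which binds FAD, and ETFB. ETFA lies at chr15:76188555-76311730 on the minus strand, and its mRNA measured 96.6, 89.5 and 88.4 CPM in sgCtrl and 108, 101 and 99.2 CPM in sgCOX4I1. All 3 sgCOX4I1 libraries were above the highest control, and within both groups the #1 library was the highest. The means were 91.5 ± 4.46 and 103 ± 4.41 CPM (SD, n = 3), a log2 fold change of 0.16 (SE 0.074, 95% interval 0.0047 to 0.32, edgeR adjusted p = 0.273). Its unadjusted edgeR p of 0.0445 was the smallest of the 10 members, and over the alternatives the adjusted p lay between 0.169 and 0.557. The difference was positive under all 12 alternatives, between 0.13 and 0.20. Without sgCOX4I1 #2 it was 0.18, and that library, with most COX4I1 mRNA, lay between the other 2 sgCOX4I1 libraries.

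ETFB (chr19:51345169-51366388, minus strand) gave 17.2, 20.6 and 16.4 CPM in sgCtrl and 17.02, 17.3 and 14.8 CPM in sgCOX4I1. The highest library was sgCtrl #2 and the lowest sgCOX4I1 #3, with the groups overlapping. The log2 fold change of ETFB was -0.15 (SE 0.12, 95% interval -0.41 to 0.12, edgeR adjusted p = 0.583), and without sgCtrl #2 it was -0.041 and without sgCOX4I1 #3 -0.074. ETFB had 298 to 463 counts per library, the lowest among the members in every library but sgCtrl #2, where ETFDH had fewer, and the largest standard error.

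The ratio of ETFA to ETFB, again chosen after the values were seen, was 5.61, 4.34 and 5.39 in sgCtrl and 6.32, 5.83 and 6.70 in sgCOX4I1. All 3 sgCOX4I1 libraries lay above the 3 controls, and sgCtrl #2 was the lowest of the 6. The group means were 5.11 ± 0.679 and 6.28 ± 0.437 (ratio of CPM, SD, n = 3), and the difference of the log2 ratios was 0.30 (SE 0.13, two-sided exact permutation p = 0.1, the smallest possible). Without sgCtrl #2 this difference was 0.19, and leaving out any other library gave 0.26 to 0.38. A ratio within a library sets both mRNAs against each other and does not show which of them differed. ETFB had the lowest log2 fold change of the members, and ETFA was among the highest. Neither passed the adjusted p, so these values do not establish that the mRNAs failed to scale together. Over the 6 libraries r between ETFA and ETFB was -0.36, rank 8041 of 11860 by likeness to ETFA, while UAP1 (r = 0.997), GLUD1 (0.997) and CLIC4 (0.992) were the tested genes most like ETFA, again as a description over 6 points.

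**Figure D3:**
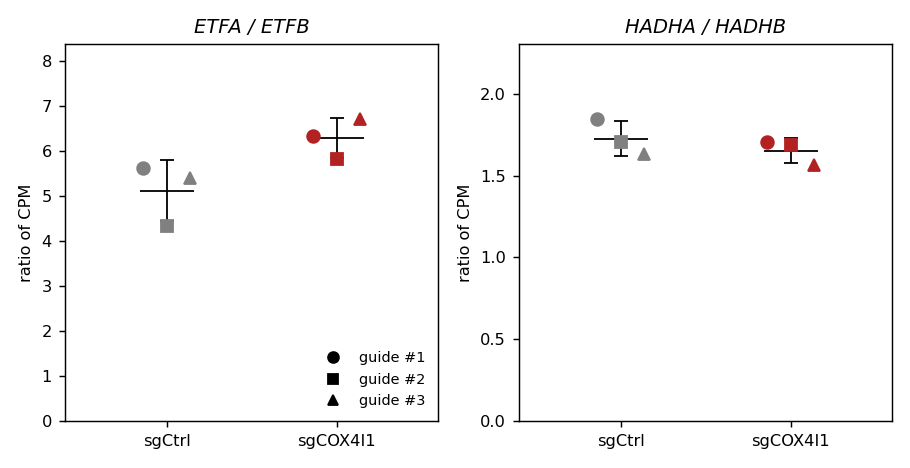
Ratio of CPM of ETFA to ETFB and of HADHA to HADHB (linear axes from 0) in each sgCtrl (gray) and sgCOX4I1 (red) library, with the symbol giving the guide number, the wide line the mean and the bar the SD. The ETFA to ETFB ratio is 4.34 to 5.61 in sgCtrl and 5.83 to 6.70 in sgCOX4I1, while the HADHA to HADHB ranges overlap.

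The bases before the start of ETFB are shown because ETFB differed from the other members in the motifs found there. The stretch is chr19:51366389-51366638 on the minus strand, 250 bases ending directly before the start, from the RefSeq table of 35116 promoters in GRCh38.p14. Capitals mark, from left to right, CCAAT on the other strand at -141 and at -95, the core of a binding site of the transcription factor NRF1 at -38, and a GC box at -13, counted from the start to the first base of the match.
ETFB: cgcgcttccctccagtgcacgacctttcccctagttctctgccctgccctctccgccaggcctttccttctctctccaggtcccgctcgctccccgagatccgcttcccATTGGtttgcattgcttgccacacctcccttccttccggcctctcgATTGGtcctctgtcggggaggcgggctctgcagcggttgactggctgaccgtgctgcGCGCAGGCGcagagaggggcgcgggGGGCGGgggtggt

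Motifs were searched on both strands in the window from 250 bases before to 50 bases after the start, in the 8 members whose table entry starts within 500 bases of the canonical transcript. The GC box (GGGCGG) was in 8 of 8, where 45.0% of all promoters hold it, and CCAAT was in 2 (ETFA and ETFB), with 34.6% over all. The NRF1 core (GCGCANGCG) was in ETFB alone, with 7.52% over all. No member held the DR1 core bound by PPAR and RXR (GGTCANAGG, 1.41% of all promoters), the site of estrogen-related receptors (TCAAGGTCA, 0.353%) or the C/EBP-ATF response element (TGATGNAA, 3.62%), which says only that these letters are not in this window.

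ETFDH, the inner membrane iron-sulfur flavoprotein that takes electrons from ETF and reduces ubiquinone, lies at chr4:158671968-158710742 on the plus strand. It measured 18.6, 19.9 and 18.5 CPM in sgCtrl and 20.5, 20.9 and 22.3 CPM in sgCOX4I1. The groups did not overlap, with a gap between the highest control and the lowest sgCOX4I1 library that was smaller than the range of either group. The log2 fold change of ETFDH was 0.16 (SE 0.10, 95% interval -0.051 to 0.38, edgeR adjusted p = 0.431, and 0.389 to 0.690 over the alternatives). Of its exonic bases 7.07% are shared with C4orf46 and PPID on the opposite strand, and the strand setting of the counting is not given in the sources used here.

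Levels of different genes were compared only per length. The lengths used were the merged exons of all transcripts and the single canonical transcript, of which the latter was added after the data had been seen because merged exons counted 23865 bases for ETFDH against 3111 in its canonical transcript. In sgCtrl, ACADVL was the highest by either measure, at 213 ± 11.1 CPM per kilobase of canonical transcript (SD, n = 3) and 96.5 ± 5.05 per kilobase of merged exons. HADHA at 65.3 ± 5.34 and HADHB at 55.7 ± 1.17 per kilobase of canonical transcript followed. ETFDH was the lowest by either measure, at 6.10 ± 0.250 and 0.795 ± 0.0326.

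Between these, the order depended on the length. By canonical transcript it ran from ETFA (40.0 CPM per kilobase) through ACADM (33.2), ACADS (22.8), CPT1A (21.5) and ETFB (20.7) to CPT2 (11.8). The ranges over the 3 control libraries overlapped between ACADS, CPT1A and ETFB and between no other neighbours of that order. By merged exons CPT1A (17.2) and ACADS (16.3) came before ETFA (9.54), ACADM (5.46), CPT2 (3.16) and ETFB (2.78), and the overlapping neighbours were CPT1A with ACADS and CPT2 with ETFB. ECHS1, the enoyl-CoA hydratase with 1 length of 1277 bases in both measures, stood at 119 CPM per kilobase, between ACADVL and HADHA by canonical transcript and above ACADVL by merged exons.

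**Figure D4:**
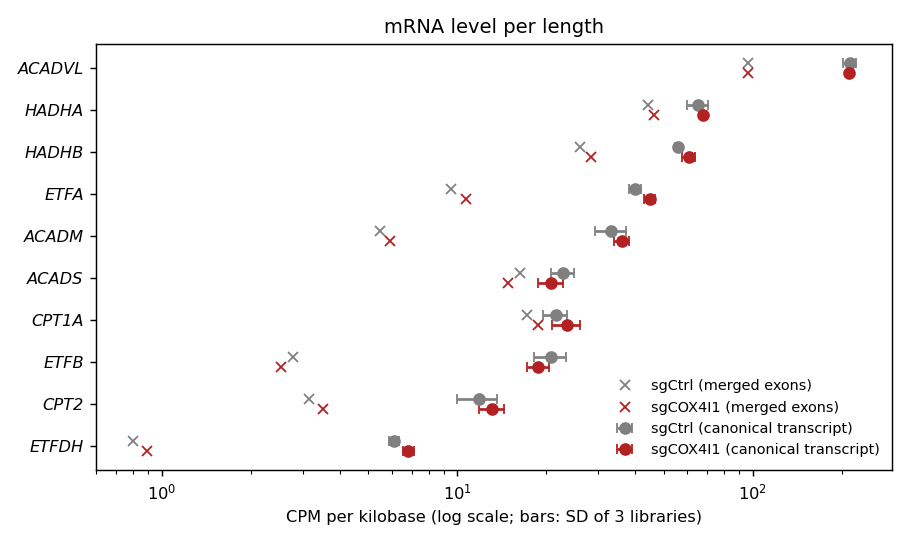
Mean CPM per kilobase (log axis) of the 10 genes in sgCtrl (gray) and sgCOX4I1 (red), with circles for the length of the canonical transcript (bars, SD of 3 libraries) and crosses for merged exons. ACADVL is highest at 213 and ETFDH lowest at 6.10 in sgCtrl by canonical transcript, and the crosses lie further left the more exons of other transcripts a gene has.

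Other genes around the pathway were described by lists written from general knowledge. For each list, the shares over all tested genes were 49.4% above 0 and 2.08% past the adjusted p. Of the flavoprotein dehydrogenases outside fatty acid oxidation that also feed ETF, 6 of 7 were tested, 5 above 0 and 1 below, none past the adjusted p. SARDH, which oxidizes sarcosine, measured 6.54, 7.22 and 6.98 CPM in sgCtrl and 4.63, 5.81 and 5.05 CPM in sgCOX4I1 (log2 fold change -0.43, edgeR adjusted p = 0.193), with the groups apart. ACADSB, the short branched-chain acyl-CoA dehydrogenase, measured 19.8, 14.5 and 17.6 CPM in sgCtrl and 21.2, 18.1 and 21.8 CPM in sgCOX4I1 (0.24, adjusted p = 0.358 in the same fit).

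Genes that supply the flavin cofactor or modify ETF gave 6 tested of 8, 5 above 0 and 1 below, none past the adjusted p. The pair with the smallest p had all sgCOX4I1 libraries above all controls, beside 11.2% of all tested genes. Since the pair was picked by p, this adds nothing to the p. RFK, riboflavin kinase, which makes FMN, measured 19.7, 18.5 and 20.9 CPM in sgCtrl and 26.01, 27.2 and 24.2 CPM in sgCOX4I1 (log2 fold change 0.39, SE 0.10, edgeR adjusted p = 0.0632). SLC25A32, the mitochondrial carrier for folate and FAD, measured 50.6, 45.0 and 45.7 CPM in sgCtrl and 60.6, 56.6 and 58.9 CPM in sgCOX4I1 (0.32, SE 0.080, edgeR adjusted p = 0.0588). Both lay near the threshold and crossed it under some alternatives, with an adjusted p from 0.0381 to 0.292 for RFK and from 0.0233 to 0.287 for SLC25A32. RFK has 6 numbered pseudogenes, and 11.1% of the exonic bases of SLC25A32 are shared with DCAF13 on the opposite strand.

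Among other enzymes that reduce ubiquinone, 6 of 9 listed genes were tested, all 6 lay above 0 with a median of 0.14, and 1 passed. Of all tested genes, 49.4% lay above 0 and 2.08% passed. SQOR was not among the gene symbols of the count table, and an older symbol was not searched for, so its level is not known. GPD2, the mitochondrial glycerol-3-phosphate dehydrogenase, measured 4.25, 3.04 and 3.78 CPM in sgCtrl and 6.95, 6.28 and 6.59 CPM in sgCOX4I1. All 3 sgCOX4I1 libraries were above all controls, and GPD2 rose by 0.84 on the log2 scale (SE 0.18, edgeR adjusted p = 0.0333). The call did not hold without some libraries, where the edgeR adjusted p was 0.216 without sgCtrl #2, 0.0650 without sgCOX4I1 #1, 0.107 without #2 and 0.1003 without #3. Over the alternatives it ranged from 0.0078 to 0.216. Calls over the whole table also fell, from 247 to 24 without sgCtrl #2, 51 without sgCOX4I1 #2 and 89 without #3, but were 230 without sgCOX4I1 #1. The log2 fold change of GPD2 stayed between 0.72 and 0.95.

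Genes of fatty acid uptake and activation, upstream of the carnitine shuttle, gave 12 tested of 14, with 10 above 0 and 2 below and a median of 0.17. Of all tested genes, 49.4% lay above 0 and 2.08% passed the adjusted p. The groups were apart in 1 gene of the list in each direction, beside 11.2% (higher) and 10.4% (lower) of all tested genes. SLC27A3, an acyl-CoA synthetase of the fatty acid transport protein family, was the only gene of the list past the adjusted p. It measured 45.2, 47.9 and 51.9 CPM in sgCtrl and 35.6, 38.4 and 36.7 CPM in sgCOX4I1, and fell by 0.39 on the log2 scale (SE 0.085, edgeR adjusted p = 0.0338). All its sgCOX4I1 libraries were below all controls. The adjusted p was 0.178 without sgCtrl #2, 0.0783 without sgCtrl #3, and 0.0773, 0.104 and 0.108 without sgCOX4I1 #1, #2 and #3, in a range of 0.0070 to 0.178, while the log2 fold change stayed between -0.44 and -0.33. Of its exonic bases 8.32% are shared with INTS3 on the same strand. SLC27A2, a very long-chain acyl-CoA synthetase of the same family that was added after its values were seen, measured 10.6, 7.66 and 8.06 CPM in sgCtrl and 14.7, 13.8 and 11.96 CPM in sgCOX4I1. Its groups were apart in the opposite direction, with a log2 fold change of 0.62 (SE 0.15, edgeR adjusted p = 0.0512, and 0.0095 to 0.286 over the alternatives). It passed the threshold in DESeq2 (adjusted p = 0.0161) and without sgCtrl #1 (0.0095 in edgeR), among others. Of its exonic bases 19.95% are shared with ATP8B4 on the opposite strand.

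**Figure D5:**
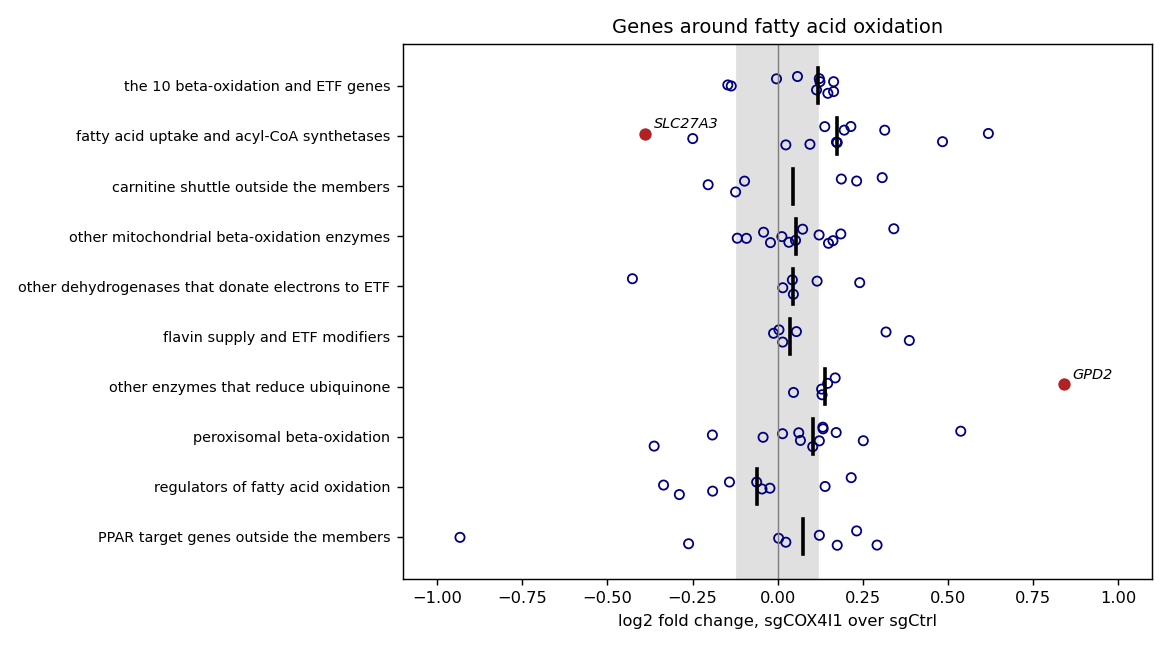
Log2 fold change, sgCOX4I1 over sgCtrl, of every tested gene of the lists around fatty acid oxidation (1 circle per gene), with the median of each list as a black bar and the quartiles of all tested genes as a gray band. Filled red circles mark the 2 genes past an adjusted p of 0.05 in edgeR, SLC27A3 at -0.39 and GPD2 at 0.84, and none of the 10 circles in the top line is filled.

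The 10 members together summed to 1186, 1172 and 1120 CPM in sgCtrl and 1188, 1226 and 1196 CPM in sgCOX4I1. The 3 sgCOX4I1 sums were the higher ones, with sgCOX4I1 #1 only just above sgCtrl #1. The sum weighs the 10 genes unequally and was not tested. ACADVL, with a log2 fold change of -0.0036, held the largest part (459, 492 and 444 CPM in sgCtrl). Of the sgCOX4I1 libraries, #2 with 76.7% of control COX4I1 mRNA had the highest sum. Without that library the members' median log2 fold change was 0.081, with 7 above 0, and none passed an unadjusted or adjusted p of 0.05 in edgeR.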

How the data were processed

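The authors deposited 1 table of whole-number read counts for 19845 gene symbols in 6 libraries, without normalization, and all its columns were used. The submitters' processing notes name bcl2fastq 2.20.0.422, STAR 2.6.0a, edgeR and GRCh38, and the column names point to STAR, marked duplicates and HTSeq, whereas the study's methods name Trimmomatic, Bowtie2 and RSEM. The strand setting of the counting is not given in the sources used here, although the library preparation was directional. HTSeq by default leaves out reads on more than 1 gene, and leaving out marked duplicates would compress the counts of highly expressed genes. Each column was assigned to its sample by letter (C, control or K, knockout) and guide number.

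From these counts, edgeR 4.0.16 in R 4.3.3 gave TMM factors of 0.987 to 1.01, CPM, and quasi-likelihood tests without covariates on the 11861 genes kept by its expression filter, adjusted by Benjamini-Hochberg over all of them and calls at an adjusted p of 0.05. Log2 CPM used a prior count of 2. Depth was 17241014 to 30861943 counts, and libraries of a group differed by more than sampling noise (chi-square per degree of freedom 11.0 to 27.6), so none was treated as a copy. Exact permutation tests over libraries were two-sided. The script was tested on simulated data with planted changes far larger than those of the members, so that test does not bear on differences of their size.

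Named were COX4I1, the 10 members, in each list the genes with an adjusted p under 0.05 (up to 6) or otherwise the 2 with the smallest p, and the 3 genes most correlated with HADHA and with ETFA, all with a mean of at least 1 CPM. The rest of the names are list members given as counts or were added after their values were seen (ACAD9, SLC27A2, PRKAA1, PPARG, PECAM1, CPT1B, CPT1C, ACADL, and ECHS1 per kilobase). The members and lists were chosen with earlier results of these data known. Alternatives were DESeq2 1.42.0 and limma-voom (limma 3.58.1) as other tests, plain library sizes in place of TMM, no count filter or one of 10 counts in each library, a replicate block, and leaving out each library in turn. Ranges over the alternatives leave out the replicate block. Positions, lengths and shared exons came from the GENCODE annotation of GRCh38, and promoters from RefSeq, in which 9 of the 10 members had an entry.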

Additional observations from a re-analysis of the deposited data

How the results depend on the processing

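None of the 10 members passed an adjusted p of 0.05 under any of the 12 alternatives, and the smallest adjusted p among them was 0.0676 (ETFA, replicate block). Directions held for 9 members. ACADVL, at -0.0036, turned to 0.0092 for library size without TMM and 0.00072 with no filter on low counts, and to 0.038 without sgCtrl #2 and 0.0050 without sgCOX4I1 #1 (leave-one-out range -0.034 to 0.038). The cause was not tested. COX4I1 passed the threshold at a log2 fold change of -1.20 with no filter (adjusted p = 0.000205 in edgeR), -1.40 in limma-voom (0.0291) and -1.39 with the replicate block (0.000176), and ranged from -1.89 to -0.95 with 1 library left out. The count of genes called over the table was 436 with DESeq2, 537 with no filter, 1408 with the replicate block and 24 to 561 with 1 library left out, and the count at 2-fold or more was 41, 57 and 9 to 50 under the last 3. The sources used here do not say whether equal guide numbers pair the libraries. Deviations of same-numbered libraries correlated at 0.38 (#1), -0.024 (#2) and 0.29 (#3), and those of differently numbered libraries at -0.38 to 0.13. For #2 there was no such likeness, and sgCtrl #2 correlated best with sgCOX4I1 #3 (0.064). A replicate effect shared between the groups was not tested. The replicate block is given only here, and the ranges over the alternatives elsewhere leave it out. Under it SLC27A2, SLC25A32, RFK, HSD17B4, NRF1, PPARD, UCP3 and KRT8 also passed (adjusted p = 0.0041 to 0.0426 in edgeR). Of 442 values compared over 47 results, 379 kept direction and side of the threshold or moved little, 4 turned, 26 newly passed, 9 no longer passed and 24 moved, of which 10 were levels per kilobase under the other length. With 3 libraries a group and standard errors of 0.072 to 0.12, any difference within a member's interval remains possible. The interval is not a limit of detection, since that of ETFA (0.0047 to 0.32) left out 0 and its edgeR adjusted p was 0.273.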

Other observations

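Peroxisomes hold a separate beta-oxidation that shortens very long and branched chains. Of 15 listed genes 13 were tested, 10 above 0 and 3 below. The median log2 fold change was 0.10, and none passed an adjusted p of 0.05 in edgeR (3 had an unadjusted p under 0.05, beside 17.3% of all tested genes). In 5 every sgCOX4I1 library lay above every control and in none below, beside 11.2% and 10.4% of all tested genes. HSD17B4, the peroxisomal bifunctional enzyme, measured 59.3, 60.6 and 66.0 CPM in sgCtrl and 68.0, 79.2 and 74.3 CPM in sgCOX4I1 (log2 fold change 0.25, edgeR adjusted p = 0.134). PECR, the trans-2-enoyl-CoA reductase, measured 4.09, 3.42 and 2.604 CPM in sgCtrl and 5.30, 4.59 and 4.73 CPM in sgCOX4I1 (0.54, edgeR adjusted p = 0.202).

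Of the regulators of fatty acid oxidation, 7 of 9 tested genes lay below 0, where 49.4% of all tested genes lay above 0. Their median of -0.062 was within the quartiles of all tested genes, -0.12 and 0.12. None passed the adjusted p in edgeR (3 at an unadjusted p under 0.05, beside 17.3% of all tested genes). NRF1, a transcription factor for nuclear genes of mitochondrial proteins, measured 28.6, 31.7 and 30.2 CPM in sgCtrl and 24.0, 23.9 and 23.8 CPM in sgCOX4I1. The groups were apart, and the log2 fold change was -0.34 (edgeR adjusted p = 0.0750, and 0.0476 to 0.308 over the alternatives). PPARD, a nuclear receptor for fatty acids, measured 41.5, 48.4 and 43.6 CPM in sgCtrl and 32.8, 38.4 and 38.1 CPM in sgCOX4I1, also apart (-0.29, edgeR adjusted p = 0.134). PRKAA1, also with an unadjusted p under 0.05, measured 60.8, 56.5 and 61.5 CPM in sgCtrl and 68.7, 66.9 and 72.0 CPM in sgCOX4I1. Its groups were apart in the opposite direction (log2 fold change 0.22, edgeR adjusted p = 0.159). PPARG, left out by the count filter and not tested, had 7, 5 and 6 counts in sgCtrl and 10, 20 and 37 in sgCOX4I1. The coactivator PPARGC1A had 17 counts in all 6 libraries together.

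Known PPAR target genes outside the members gave 8 tested of 12, 6 above 0 and 2 below, none past the adjusted p in edgeR (1 at an unadjusted p under 0.05, beside the same 17.3%), and a median of 0.073. UCP3, an inner membrane carrier, measured 2.51, 3.69 and 3.34 CPM in sgCtrl and 1.51, 1.16 and 2.17 CPM in sgCOX4I1 (log2 fold change -0.93, edgeR adjusted p = 0.103). PLIN2, a coat protein of lipid droplets, measured 16.0, 20.3 and 27.0 CPM in sgCtrl and 18.7, 30.5 and 28.5 CPM in sgCOX4I1 (0.29, edgeR adjusted p = 0.460), with overlapping groups. PDK4 and FABP1 had 0 counts in all 6 libraries.

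Among the markers of other cell types, NKG7 measured 54.7, 55.8 and 56.2 CPM in sgCtrl and 63.4, 65.3 and 60.6 CPM in sgCOX4I1 (log2 fold change 0.18, edgeR adjusted p = 0.214), and KRT8, whose reads may be shared with its 51 numbered pseudogenes, had a log2 fold change of -0.78 (edgeR adjusted p = 0.163).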
